A study of Mus musculus with 2 samples.

Results

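Interferon-stimulated genes and RNA sensors were followed in endothelial cells isolated from mice treated with GFP or with NeuroD1. The members are the 34 rows of the deposited table, of 53465 in all, whose gene name is on a list of interferon-induced effectors, RNA sensors, and STAT and IRF transcription factors. The rule itself uses no measured value. Both groups were of the C57Bl/6 strain with the genotype tie2-cre, a Cre recombinase under the Tie2 promoter, which is active in endothelial cells and also in blood cell lineages. GFP, the green fluorescent protein, was the control treatment, and NeuroD1, a transcription factor of neuronal differentiation, was the test treatment. Per the labels' protocols, endothelial cells of 3 mice were collected and 10000 cells were lysed, and there was 1 library per group. The age of the mice, the vector, the dose and the time after treatment are not given in the sources used here.

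Cells detect foreign or misplaced RNA through cytosolic sensors such as RIG-I and MDA5, which signal to induce type I interferon. Secreted interferon binds its receptor on the same and on neighbouring cells, and the kinases JAK1 and TYK2 then activate STAT proteins, among them STAT2. With IRF9 these form a complex that binds interferon-stimulated response elements (ISRE) and turns on a large set of antiviral genes, among them most of the members described here. Endothelial cells are among the cells known to respond to type I interferon.

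Promoter sequences are shown first. The choice of members did not use the letters of the ISRE. It did use known interferon-induced genes, so a raised share of ISRE among them follows from the list. A promoter entry from RefSeq (GRCm38.p6) was matched by symbol for 25 of the 34 members. The ISRE core was searched as GAAA, any 2 bases and GAAA on both strands in the 250 bases before each RefSeq start. It occurred in 9 of the 25 members (36%), against 936 of 27025 genes with an entry (3.46%). A second pattern searched the same way, TTC, any 3 bases and GAA, occurred in 6 of the 25 members (24%). Of the 27025 genes, 2197 (8.13%) held it. A match is a run of letters and says nothing of binding. The 6 stretches below were chosen to show how the core is arranged in different effector families and in one factor. They are written 5′ to 3′ on the strand of the gene, and capitals mark the bases inside a match to the ISRE core, which begins and ends with TTTC where it lies on the opposite strand.
Isg15: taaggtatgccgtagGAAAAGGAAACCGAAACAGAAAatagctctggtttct
Ifit1: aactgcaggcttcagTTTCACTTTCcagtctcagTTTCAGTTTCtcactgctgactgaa
Ifit3: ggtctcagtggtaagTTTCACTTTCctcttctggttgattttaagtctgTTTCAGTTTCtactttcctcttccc
Bst2: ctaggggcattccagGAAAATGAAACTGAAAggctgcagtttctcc
Oas1a: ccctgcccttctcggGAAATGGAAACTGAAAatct
Stat2: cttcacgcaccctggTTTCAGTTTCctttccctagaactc

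The Isg15 stretch (chr4:156200860-156200911, minus strand) held 3 overlapping matches, the farthest beginning 78 bases before the start. Ifit1 (chr19:34640770-34640828, plus strand) and Ifit3 (chr19:34583358-34583431, plus strand) each held 2 separate matches, the farthest beginning 104 and 156 bases before the start. Bst2 (chr8:71537572-71537617, minus strand) and Oas1a (chr5:120907526-120907560, minus strand) each held 2 overlapping matches. Stat2 (chr10:128270261-128270300, plus strand) held 1 match, beginning 222 bases before the start. Ifitm2, Oas3 and Rsad2 were the other members with a match.

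Depth set how much each value can show. Reads were recovered from the deposited FPKM (fragments scaled by exon length and library size) and numbered 2011130 with GFP and 2001426 with NeuroD1. Genes above 1000 FPKM took 52.3% and 57.4% of them, and the median protein-coding gene held 24 and 20 reads. Neurod1 itself, the check of the labels, stood at 0.664 FPKM in the GFP library (4 reads) and 182 FPKM in the NeuroD1 library (970 reads). Chemoreceptor genes, which encode odour, pheromone and taste receptors, are not known to be used by endothelial cells and serve as a reference level. Their medians were 1.54 FPKM with GFP and 1.40 FPKM with NeuroD1, and their 95th percentile was 4.39 and 4.79 FPKM. Of 1514 chemoreceptor genes, only 35 and 60 were at 0, so a value above 0 was common in the reference too. The 12 pan-endothelial markers had medians of 8.69 and 10.4 FPKM, and none was at 0. Because each group is a single library, differences lack a check by replicates, and no p-value is given.

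All 34 members had reads in both libraries or, for Mx1, a value above 0 in both. Few genes lacked reads, since 666 of 22040 protein-coding genes were at 0 in GFP and 864 in NeuroD1. The median member stood at 4.43 FPKM with GFP and 3.31 FPKM with NeuroD1. For protein-coding genes as a whole the medians were 3.10 and 2.98 FPKM. In the GFP library 17 members (50%) were above the chemoreceptor 95th percentile, where 30% of protein-coding genes were. In the NeuroD1 library 12 members (35.3%) were above it, against 24.6% of protein-coding genes. The 12 were all above it in GFP too, and the 5 above it in GFP alone were Ddx58, Irf7, Irf9, Trim25 and Parp14. Irf9, at 4.76 FPKM with NeuroD1, and Xaf1, at 4.34 FPKM with GFP, lay just under the line. The other 17 members stood under the 95th percentile in both libraries, here called within the chemoreceptor range. Their FPKM alone does not set them apart from the higher chemoreceptor genes. Read counts varied among these 17. Xaf1 held 45 and 27 reads, where 16.0 and 12.8 are expected at the chemoreceptor median for its length. Ifi44 held 26 and 13 reads, where 20.9 and 16.8 are expected, and Ifitm2 held only 6 and 4. Against the chemoreceptor median, 33 of 34 were higher in both libraries, as were 72.7% of protein-coding genes, the exception being Ifi44 with NeuroD1.

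**Figure D1:**
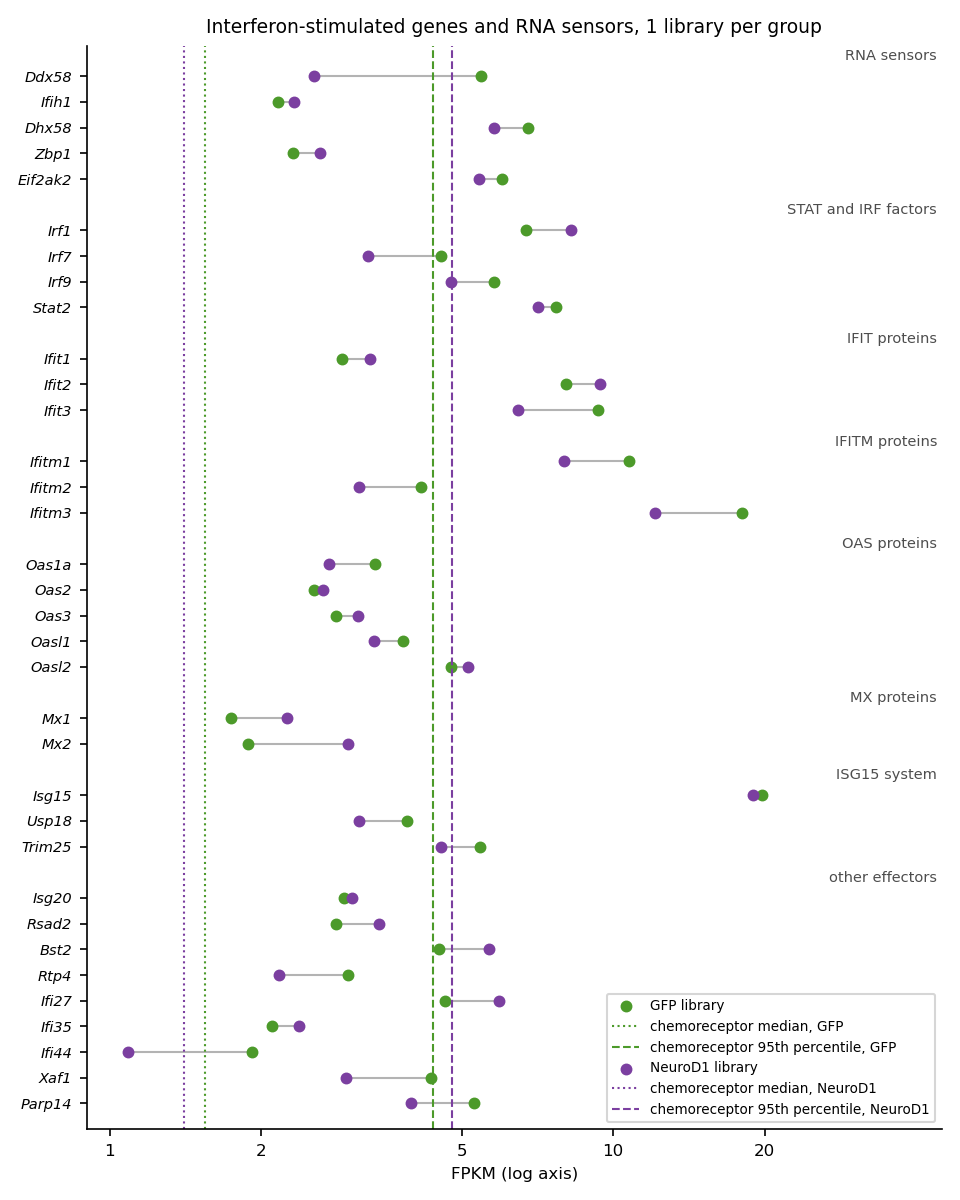
FPKM of the 34 members in the GFP library (green) and the NeuroD1 library (purple) on a log axis, grouped by role, with 1 point per library. Dotted and dashed vertical lines mark the chemoreceptor median and 95th percentile of each library. Isg15, Ifitm3, Ifit2 and Ifitm1 lie well to the right in both libraries, and the pair of points of Ddx58 is the widest apart among members above 5 FPKM in one library.

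Across the 34 genes, log2(FPKM + 1) in one library followed that in the other at a Pearson r of 0.910 and at a Spearman rho of 0.856. Over 19918 protein-coding genes with a mean of at least 1 FPKM, r was 0.795 and rho 0.753. These correlations are across genes that share 2 libraries and are descriptions only. Isg15 and Ifitm3 ranked first and second in both libraries.

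The comparison asks whether these genes differed with NeuroD1 treatment. No member was 2-fold higher or 2-fold lower in NeuroD1, meaning a difference of at least 1 in log2(FPKM + 1) with a mean of at least 1 FPKM. The same rule took 2.33% of protein-coding genes as higher and 3.31% as lower. The differences ran from -0.87 for Ddx58 to 0.47 for Mx2, and 32 of 34 were under 0.5 in size, as were 75.4% of protein-coding genes. The median was -0.12, with 15 members above 0 and 19 below it (55.9%). Over protein-coding genes the median was -0.01 and 51.3% were below 0. This log scale understates the change of low genes.

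For 33 members, whole reads gave the FPKM ratio of NeuroD1 to GFP an exact Clopper-Pearson 95% interval. Of the 30 with at least 20 reads over both libraries, none had an interval above 1, and Ddx58 alone had one below 1 (3.33%). Among 14791 protein-coding genes with that many reads, 5.93% had an interval above 1 and 6.22% below it. The members' share is no larger than that of genes in general. The intervals cover counting error only, and they are too narrow if the reads include copies of one molecule. In bulk samples, fewer cells that express a gene and less RNA per cell cannot be told apart.

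**Figure D2:**
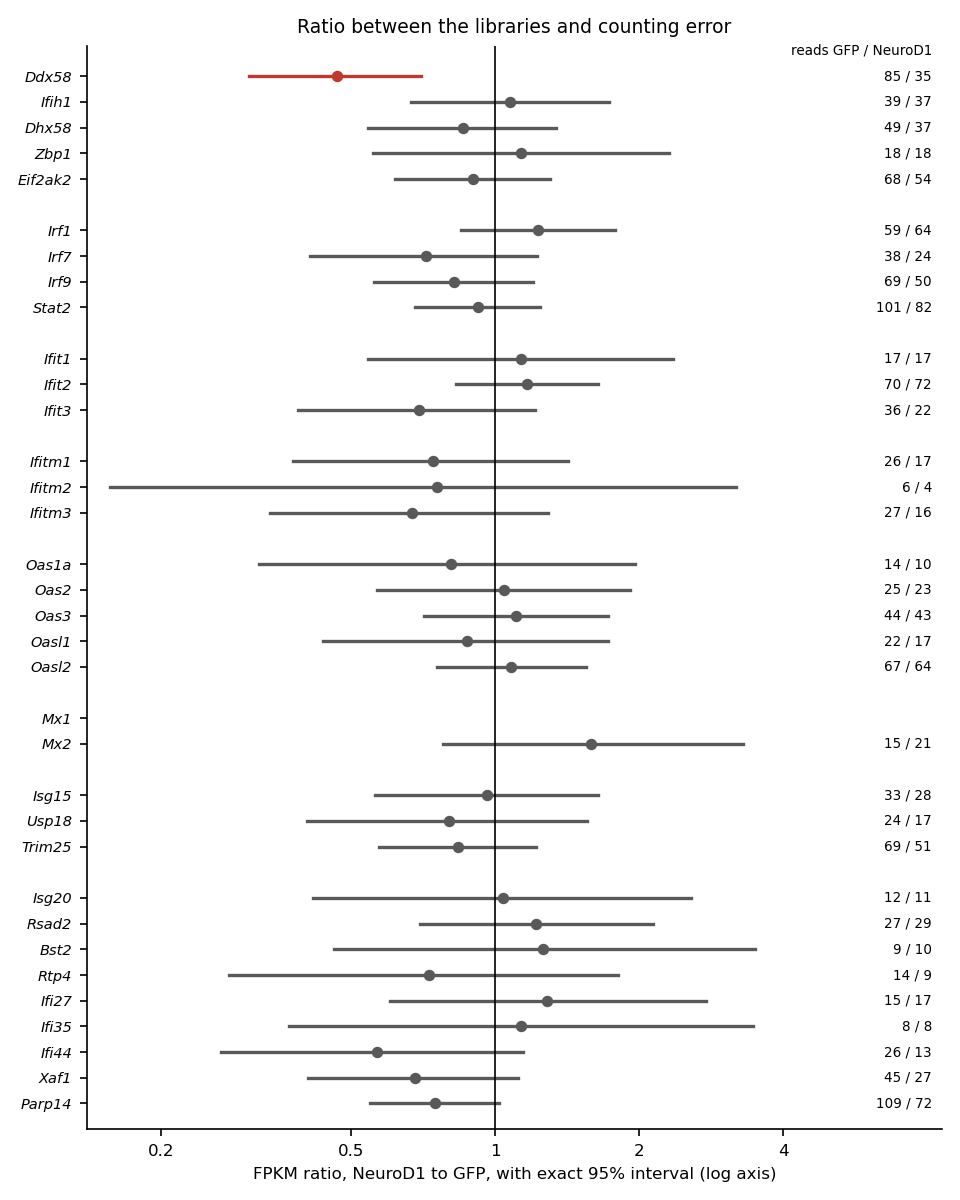
FPKM ratio of NeuroD1 to GFP for 33 members on a log axis, in the same order as in the plot of levels, with exact 95% intervals for counting error and the reads behind each on the right. Ddx58 (red) is the single member whose interval lies to one side of 1. Mx1 has no interval because whole reads were not recovered.

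RNA sensors come first in the pathway. Ddx58 encodes RIG-I, which recognises short double-stranded RNA and RNA with a triphosphate end (ENSMUSG00000040296, GRCm38 chromosome 4, 40203773 to 40239828, minus strand). It stood at 5.46 FPKM with GFP and 2.55 FPKM with NeuroD1, with 85 and 35 reads. The ratio was 0.466 (95% interval 0.305 to 0.699). At the chemoreceptor median, a gene of its length would hold 24.0 reads in GFP and 19.3 reads in NeuroD1, so the NeuroD1 value is nearer to that reference. In log2(FPKM + 1) the difference was -0.87, short of the 2-fold rule, and it passed that rule with a pseudocount of 0.1, with the chemoreceptor median subtracted and with the libraries set to equal FPKM sums. Those settings took 6.96%, 6.15% and 4.79% of protein-coding genes as 2-fold lower.

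Ifih1, which encodes MDA5, the sensor of long double-stranded RNA, stood at 2.16 FPKM with GFP and 2.32 FPKM with NeuroD1 (39 and 37 reads, interval 0.666 to 1.73). Dhx58, which encodes LGP2, a modulator of the other RIG-I-like receptors, stood at 6.78 and 5.80 FPKM (49 and 37 reads, ratio 0.855, interval 0.543 to 1.34). Eif2ak2, the kinase PKR that halts translation on binding double-stranded RNA, stood at 6.02 and 5.42 FPKM (68 and 54 reads, ratio 0.899, interval 0.617 to 1.30). Zbp1, a sensor of Z-form nucleic acid that can trigger necroptosis, had 18 reads in each library. The intervals of these 4 sensors lie above the ratio of Ddx58 and overlap its interval, and the difference between the sensors was not tested.

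The transcription factors were among the better covered members. Stat2, a signal transducer downstream of the type I receptor, stood at 7.72 FPKM with GFP and 7.10 FPKM with NeuroD1 (101 and 82 reads, ratio 0.920, interval 0.679 to 1.24). Irf9, the DNA-binding subunit of the same complex, stood at 5.80 and 4.76 FPKM (69 and 50 reads, ratio 0.821, interval 0.559 to 1.20). Irf7, the factor that amplifies interferon production, stood at 4.56 and 3.26 FPKM (38 and 24 reads, interval 0.410 to 1.22). Irf1, which interferon gamma and inflammatory signals also induce, was the member of this group that stood higher in NeuroD1, at 6.72 and 8.25 FPKM (59 and 64 reads, ratio 1.23, interval 0.849 to 1.78). None of the 4 differed between the libraries beyond counting error.

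The IFIT proteins bind viral RNA and block its translation. Ifit2 stood at 8.07 FPKM with GFP and 9.40 FPKM with NeuroD1 (70 and 72 reads, ratio 1.165, interval 0.827 to 1.64). Ifit3 stood at 9.34 and 6.46 FPKM (36 and 22 reads, ratio 0.692, interval 0.388 to 1.21). Ifit1 had 17 reads in each library, at 2.90 and 3.28 FPKM. The genes lie side by side on chromosome 19, between 34550694 and 34650009, and their directions were mixed. Of the stretches of 50 bases in Ifit3 transcripts, 51.2% also occur in its neighbour Ifit3b, so the Ifit3 value is uncertain where reads could be split or dropped. Ifit3b, at 5.43 and 5.90 FPKM, had a ratio of 1.085 (24 and 23 reads).

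The IFITM proteins sit in cell and endosome membranes and hinder virus entry, and Ifitm3 and Ifitm1 are well expressed in endothelium in general. Ifitm3 stood at 18.0 FPKM with GFP and 12.1 FPKM with NeuroD1, with 27 and 16 reads (ratio 0.671, interval 0.338 to 1.29). Ifitm1 stood at 10.8 and 7.97 FPKM, with 26 and 17 reads (ratio 0.741, interval 0.377 to 1.42). Ifitm2 had only 6 and 4 reads, at 4.15 and 3.13 FPKM, and 48.5% of its stretches of 50 bases occur in another annotated gene. All 3, which lie within 140954837 to 141010770 on chromosome 7, were lower in NeuroD1, but each interval spans 1. The high FPKM of Ifitm3 rests on a short transcript of 678 bases, and few reads stand behind it.

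OAS enzymes make 2-5A, the messenger that activates RNase L to degrade RNA. Oasl2, an OAS-like protein, was the best covered, at 4.76 FPKM with GFP and 5.15 FPKM with NeuroD1 (67 and 64 reads, ratio 1.08, interval 0.756 to 1.55). Oas3, a sensor of long double-stranded RNA, had 44 and 43 reads (ratio 1.107, interval 0.710 to 1.72), and Oas2 had 25 and 23 reads (ratio 1.04). Oasl1, which represses translation of Irf7, had 22 and 17 reads, and Oas1a had 14 and 10. Of the Oas1a stretches of 50 bases, 57.6% are shared with another gene, mostly Oas1g. The 5 differences lay between -0.23 and 0.11.

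Mx1 and Mx2 encode dynamin-like GTPases that trap viral particles, and C57BL/6 mice are known to carry defective alleles of both. The deposited table calls Mx2 a polymorphic pseudogene. Mx2 had the highest difference of all members, at 1.88 FPKM with GFP and 2.98 FPKM with NeuroD1, with 15 and 21 reads (ratio 1.59, interval 0.779 to 3.31). Mx1 stood at 1.74 and 2.25 FPKM. Both genes lay under the chemoreceptor 95th percentile in each library.

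Isg15, a ubiquitin-like protein attached to other proteins during the response, was the member with the highest FPKM in both libraries. It stood at 19.8 FPKM with GFP and 19.0 FPKM with NeuroD1, with 33 and 28 reads (ratio 0.961, interval 0.560 to 1.64). A gene of its length of 756 bases would hold 2.58 and 2.07 reads at the chemoreceptor median. Trim25, the ubiquitin ligase that activates RIG-I, stood at 5.43 and 4.54 FPKM (69 and 51 reads, ratio 0.837, interval 0.571 to 1.22). Usp18, which removes ISG15 and shuts down receptor signalling, stood at 3.89 and 3.12 FPKM (24 and 17 reads, interval 0.405 to 1.56). Isg15, whose promoter stretch holds the longest unbroken run of ISRE cores shown above, differed by -0.05 in log2(FPKM + 1).

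Among the remaining effectors, Parp14, an ADP-ribosyltransferase, held the most reads of any member in the GFP library. It stood at 5.30 FPKM with GFP and 3.97 FPKM with NeuroD1 (109 and 72 reads, ratio 0.748), and its interval of 0.548 to 1.02 only just reached 1. Xaf1, a promoter of apoptosis, stood at 4.34 and 2.95 FPKM (45 and 27 reads, ratio 0.680, interval 0.405 to 1.12). Ifi44 had the lowest FPKM in NeuroD1, at 1.92 and 1.09 FPKM (26 and 13 reads, ratio 0.566, interval 0.267 to 1.14). When the libraries are set to equal FPKM sums, the intervals of Parp14, Xaf1 and Ifi44 lay below 1 together with that of Ddx58, 4 of 30 members with at least 20 reads. Under that scaling 16% of protein-coding genes with as many reads had an interval below 1. That scaling moves the median of protein-coding genes from -0.01 to -0.19 in log2(FPKM + 1).

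The other effectors include Bst2, or tetherin, which holds budding virus on the cell. It stood at 4.51 FPKM with GFP and 5.68 FPKM with NeuroD1 on 9 and 10 reads (interval 0.460 to 3.50). Ifi27 stood at 4.63 and 5.94 FPKM on 15 and 17 reads (ratio 1.28, interval 0.603 to 2.76). Rsad2, which encodes viperin, had 27 and 29 reads (ratio 1.22, interval 0.695 to 2.14). Isg20, an exonuclease, had 12 and 11 reads, Ifi35 had 8 in each library, and Rtp4 had 14 and 9. The intervals of Bst2, Ifi27, Rsad2, Isg20 and Ifi35 all include a ratio of 2. Those of Bst2, Isg20, Ifi35 and Rtp4 (0.278 to 1.81) include a value 2-fold lower in NeuroD1. Counting error does not exclude differences of that size in those directions.

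**Figure D3:**
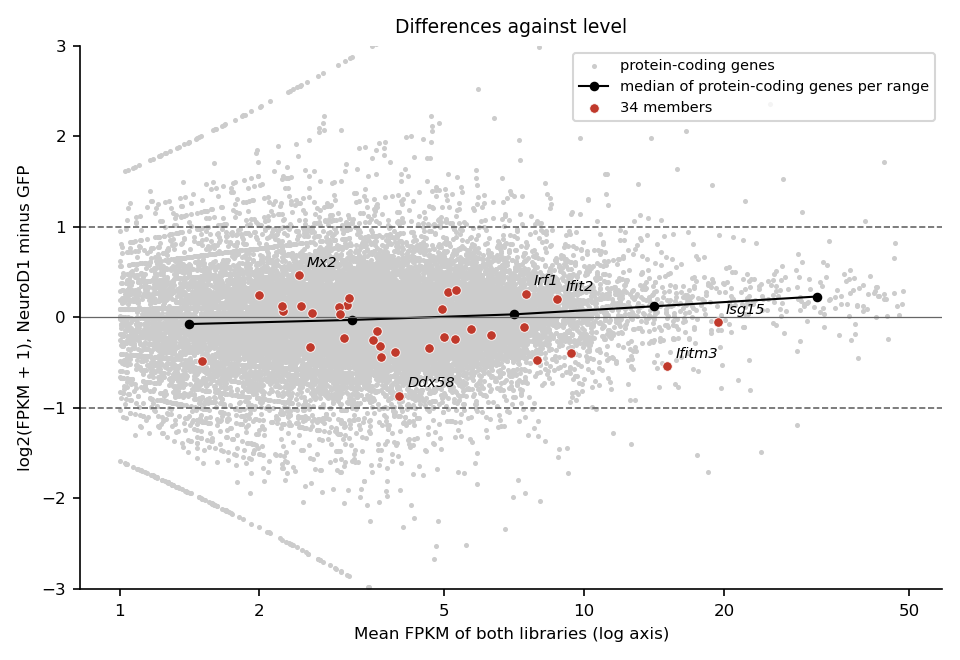
Difference in log2(FPKM + 1), NeuroD1 minus GFP, against the mean FPKM of both libraries on a log axis, for protein-coding genes with a mean of 1 to 50 FPKM (grey) and the 34 members (red). The black line joins the medians of protein-coding genes in 5 ranges of mean FPKM, and dashed lines mark 2-fold. All members lie between the dashed lines, and members at 10 FPKM or more lie under the black line.

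The median difference of protein-coding genes depends on their level, and the members were set beside it in ranges of mean FPKM. From 2 to 5 FPKM, 20 members had a median of -0.05 and 10774 protein-coding genes one of -0.03. From 5 to 10 FPKM, 10 members had a median of -0.12 and 4103 protein-coding genes one of 0.03. From 10 to 20 FPKM, the only members were Ifitm3 and Isg15, with a median of -0.30 against 0.12 for 557 genes.

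Summed over the 33 members with reads, there were 1286 reads with GFP and 1019 with NeuroD1. On the scale of the deposited FPKM that is a ratio of 0.897 (95% interval 0.826 to 0.975, for counting error only). Without Ddx58 (1201 and 984 reads) the ratio is 0.928. For all protein-coding genes at or under 1000 FPKM the same ratio was 1.009. It depended on their mean FPKM, at 0.921 from 1 to 2 FPKM and 0.976 from 2 to 5 FPKM, where 20 members lay. From 5 to 10 FPKM it was 1.020 and from 10 to 20 FPKM 1.098. For the 46 other interferon-stimulated genes with recovered reads, from a list described below, it was 1.008 (0.944 to 1.076). In 11 members, among them Irf7, Irf9, Dhx58, Usp18 and Parp14, exons overlap those of another annotated gene. The sources used here do not give whether the counting used strand. Those 11 had a median difference of -0.24, and without them the median of the other 23 was 0.043, on the other side of 0. Their summed reads, 820 with GFP and 663 with NeuroD1 over the 22 with reads, gave a ratio of 0.916, on the same side of 1 as with all members.

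Reads of the members followed transcript length. Across the 33 members, the Spearman rho of reads with merged exon length was 0.720 in GFP and 0.727 in NeuroD1. Across 1373 chemoreceptor genes with recovered reads it was 0.708 and 0.669. The labels name DRUG-seq primers, which tag transcripts at the 3′ end so that a transcript gives a tag whatever its length. FPKM divides by length all the same. These correlations are across genes of the same libraries and carry no test.

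Differences of members with and without the ISRE core overlapped. The 9 members with an ISRE core had a median difference of -0.05 (-0.47 to 0.28), with 5 below and 4 above 0. The 16 with a promoter entry and no such core had a median of -0.18 (-0.87 to 0.26), with 10 below and 6 above 0. No test was made of these 2 sets.

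Upstream of the members, the 21 interferon ligand genes were near the reference level. Their medians were 1.59 FPKM with GFP and 1.79 FPKM with NeuroD1, 3 were listed at 0 in GFP and 6 in NeuroD1, and no ligand held more than 16 reads. Ifnb1, the interferon beta gene, had 5 reads in each library. Ifna11 had 0 reads with GFP and 7 with NeuroD1. Ifnl3 had 6 and 0. Their intervals exclude 1, but each rests on under 20 reads and the near-identical Ifna genes can share reads. Only Ifnk reached the 20 reads asked of the other lists, and its interval included 1. Of 15 ligands with a mean of at least 1 FPKM, 2 were 2-fold higher and 3 were 2-fold lower, each on under 20 reads. The shares of protein-coding genes were 2.33% and 3.31%. The other ligands with high means were Ifnk, with 16 and 7 reads, Ifna16, with 12 and 7, and Ifna4, with 3 and 7.

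Of 10 receptor and kinase genes, 1 was 2-fold lower and none 2-fold higher, against 3.31% and 2.33% of protein-coding genes. Ifngr1, the ligand-binding chain of the interferon gamma receptor, stood at 4.13 FPKM with GFP and 1.44 FPKM with NeuroD1 (26 and 8 reads, ratio 0.349, interval 0.136 to 0.793). Its partner chain Ifngr2 stood at 6.42 and 3.87 FPKM, with no recovered reads. Ifnar1, a chain of the type I receptor, was level at 7.08 and 7.07 FPKM, and Il10rb, a chain of the interferon lambda receptor, stood at 4.64 and 5.79 FPKM. The list median was 0.01.

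Sensing adaptors and kinases, 14 genes that pass signals from RNA and DNA sensors, had a median of -0.16 with none past 2-fold. Of 11 with at least 20 reads, 1 had an interval above 1, as did 5.93% of protein-coding genes. Irf3, the factor that first induces interferon beta, stood at 4.08 FPKM with GFP and 6.70 FPKM with NeuroD1 (31 and 45 reads, ratio 1.64, interval 1.02 to 2.69). Its exons overlap those of Bcl2l12. Tmem173, which encodes STING, the adaptor of cytosolic DNA sensing, stood at 8.26 and 4.90 FPKM with no recovered reads. Ticam1, the adaptor of TLR3, stood at 5.45 and 6.00 FPKM.

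The 48 other interferon-stimulated genes are not members and were read in the same 2 libraries. Among them, Ifit3b and Oas1g share sequence with Ifit3 and Oas1a. Of 46 at a mean of at least 1 FPKM, 24 were above and 22 below 0, the median was 0.02, and none was past 2-fold in either direction. Of the 42 with at least 20 reads, 1 had an interval below 1 and none above it, against 6.22% and 5.93% of protein-coding genes. That gene was Helz2, a helicase and nuclear receptor coactivator, at 3.38 FPKM with GFP and 2.31 FPKM with NeuroD1 (86 and 52 reads, ratio 0.685, interval 0.476 to 0.977). Herc6, the mouse ligase for ISG15, had 159 and 153 reads (ratio 1.09, interval 0.867 to 1.37). Irgm2, an immunity-related GTPase whose exons overlap those of Igtp, had 49 and 61 reads (interval 0.952 to 2.10), and Slfn5 had 108 and 82 (interval 0.637 to 1.16).

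Among 8 negative regulators, the median was -0.04 and none was past 2-fold. Of 6 with at least 20 reads, 1 had an interval below 1 and 1 above it. The shares of protein-coding genes were 6.22% and 5.93%. Nlrc5, which restrains sensor signalling and drives MHC class I genes, stood at 5.65 FPKM with GFP and 3.44 FPKM with NeuroD1 (106 and 57 reads, ratio 0.609, interval 0.433 to 0.848). Pias1, an inhibitor of STAT signalling, stood at 14.2 and 17.3 FPKM (214 and 231 reads, ratio 1.22, interval 1.01 to 1.48). Rnf125, a ligase that targets RIG-I for degradation, stood at 15.6 and 17.7 FPKM with no recovered reads.

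**Figure D4:**
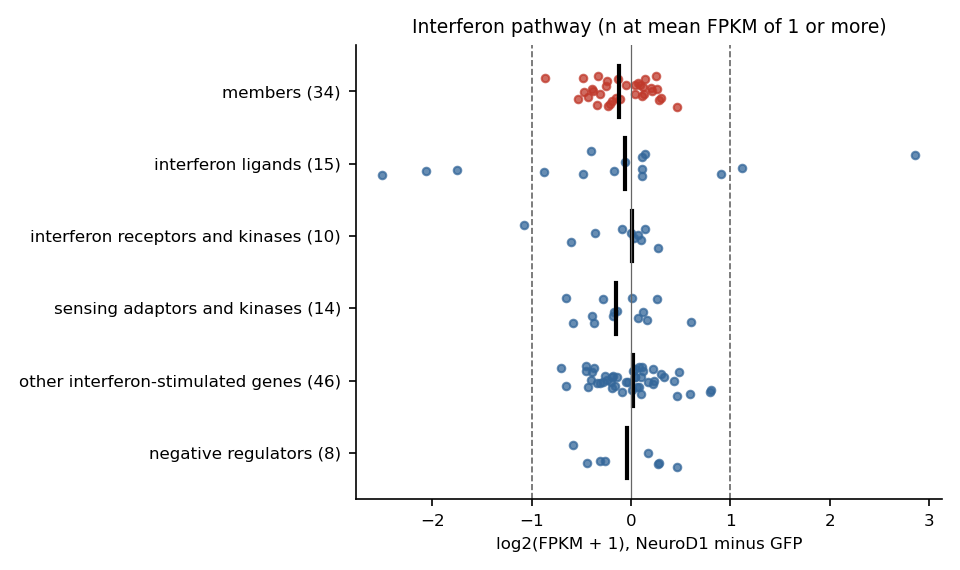
Differences in log2(FPKM + 1), NeuroD1 minus GFP, of the members (red) and of 5 lists of pathway genes (blue) with a mean of at least 1 FPKM, with 1 point per gene, black bars for medians and dashed lines at 2-fold. The medians lie between -0.16 and 0.02, and points beyond the dashed lines are interferon ligands with few reads and Ifngr1.

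Markers of other cells that express these genes were read in the same libraries. The 34 members summed to 182 FPKM in GFP and 164 FPKM in NeuroD1. The 12 microglia markers summed to 48.7 and 44.1 FPKM, with 10 of 12 lower in NeuroD1 and a median difference of -0.30. Reads were recovered for 11 of these markers and summed to 182 and 124 (ratio 0.772, interval 0.609 to 0.975). Of their defining genes, P2ry12 stood at 1.07 and 1.41 FPKM and Tmem119 at 2.15 and 1.99 FPKM, within the chemoreceptor range, and none of the 12 was at 0. The 12 lymphocyte and plasmacytoid dendritic markers summed to 47.1 and 45.3 FPKM and the 9 neutrophil markers to 56.7 and 56.3 FPKM. Within the neutrophil list, Elane, which encodes neutrophil elastase, stood at 11.96 and 1.56 FPKM on 26 and 3 reads, and S100a9, a calcium-binding protein, at 10.4 and 20.6 FPKM on 12 and 21 reads. Both were chosen after their values were seen. The reads of the list summed to 169 and 120 (ratio 0.804, interval 0.631 to 1.02). The 10 neuron markers summed to 52.5 and 65.9 FPKM (656 and 717 reads, ratio 1.24, interval 1.11 to 1.38). Of these, 7 were higher and 3 lower in NeuroD1, and Rbfox3 alone held 344 and 352 of the reads. Ratios of summed reads were 1.07 for astrocyte markers (interval 0.899 to 1.27) and 1.04 for oligodendrocyte markers (0.850 to 1.27). For mural markers the ratio was 0.868 (0.698 to 1.08). Pan-endothelial markers summed to 136 and 148 FPKM, with 8 of 12 higher in NeuroD1. The part of these cell types in the values of the members was not tested.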

How the data were processed

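Expression was measured in 2 libraries, 1 from endothelial cells of GFP-treated and 1 from those of NeuroD1-treated mice. The authors deposited 1 table of FPKM values for 53465 Ensembl mouse genes. Per the submitters' processing notes, the build was GRCm38 and the tools were DESeq, featureCounts 1.6.3 and Bowtie2 2.3.5.1. The sources used here do not give how strand, multiply mapped reads and molecular identifiers were treated.

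FPKM times merged exon length (GENCODE M21, GRCm38) gave whole multiples of 1 step per library within 0.02 reads for 51162 genes (95.7%), and those multiples were taken as reads. Recovery and intervals were tested on simulated data. Lists were compared by log2(FPKM + 1), with a minimum of the mean FPKM over both libraries of 1, and single genes by FPKM ratio with a Clopper-Pearson 95% interval. No p-value was computed. Members and lists were chosen with earlier results of these data known. Named were members at 5 FPKM or more, with an interval excluding 1, or among the 4 highest and 4 lowest differences, and, of each pathway list, genes with an interval excluding 1 and the 3 highest means. Other members are also given. The values of 1 pathway gene are not reported here. Alternatives were other pseudocounts, minimums, scalings, percentiles and interval levels. Counting intervals do not cover the spread between mice. Tools were Python 3.11.15, pandas 2.3.3, scipy 1.17.1, numpy 2.4.6 and matplotlib 3.10.9.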

Additional observations from a re-analysis of the deposited data

How the results depend on the processing

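No paired analysis was possible because there is 1 library for GFP and 1 for NeuroD1, so no replicate could be left out either. The member median of -0.12 was -0.32 with the libraries set to equal FPKM sums and 0.043 without the 11 members that overlap another gene, a setting chosen after seeing the data that counts fewer genes. Under the 7 other settings run it lay between -0.13 and -0.08. The count of members 2-fold lower, 0 at first, was 1 (Ddx58) with a pseudocount of 0.1, with equal FPKM sums and with the chemoreceptor median subtracted, where 6.96%, 4.79% and 6.15% of protein-coding genes were. The count with an interval below 1 was 4 of 30 with equal FPKM sums, where 16% of protein-coding genes had one, and 1 (Ddx58) at 99%, where 2.31% did. Members above the chemoreceptor level were 3 in GFP and 1 in NeuroD1 at the 99th percentile, against 3.22% and 1.66% of protein-coding genes, and 34 and 33 at the median, against 80% in each library. At a mean of at least 5 FPKM, values were -0.87 for the 1 ligand left (Ifnk), and medians were -0.0035 over 3 receptors and kinases, 0.12 over 3 sensing adaptors and 0.22 over 2 negative regulators. With equal FPKM sums medians were -0.18 for receptors and kinases and -0.17 for other interferon-stimulated genes, and with a pseudocount of 5 it was 0.0024 for negative regulators. Apart from fewer genes and a common shift, the cause was not tested. The 33 members with recovered reads held 10 to 183 reads each over both libraries. On the deposited scale, every interval but that of Ddx58 included 1. With so few reads, those intervals do not exclude moderate differences of single members.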
